A study of Mus musculus with 4 samples.

Results

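Cells that carried endothelial and cushion transcripts at once were taken from single-cell RNA sequencing of mouse embryonic hearts at E10.5. A cell was counted when it held at least 2 UMIs of the endothelial genes Cdh5 and Pecam1 together, at least 1 UMI of Twist1, at least 1 UMI of Hapln1, and fewer than 10 UMIs of the cardiomyocyte gene Tnnt2 per 10000 UMIs of the cell. A UMI (unique molecular identifier) is a tag that marks 1 captured mRNA molecule. This gate was applied to barcodes with 500 to 6000 genes, 2000 to 50000 UMIs and at most 20% mitochondrial UMIs, and 3500 of 28025 such cells passed it, from 33589 barcodes in the files. They are called transition-gate cells here, after the rule and not after a cell state, and the 5 gate genes are given as a description with no test.

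The hearts came from C57BL/6J embryos that were wild-type (Wt) or homozygous for Cyp51 I383V (Ho), a missense allele made with CRISPR/Cas9 in the gene of lanosterol demethylase, an enzyme of cholesterol synthesis. Each genotype had 2 libraries, named Wt1, Wt2, Ho1 and Ho2. Hearts were dissected, digested with collagenase and treated to lyse red blood cells before droplet capture, so the cell suspension could hold any cell of the heart and of attached tissue. The sources used here do not say how many embryos or litters a library holds, so p-values measure the spread between these libraries, which may be technical.

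In the embryonic heart, endocardial cells of the atrioventricular canal and the outflow tract lose their junctions, enter the cardiac jelly and become the mesenchyme of the endocardial cushions, from which valves and septa form. BMP and TGF-beta signals from the myocardium, Notch in the endocardium and ErbB signalling in a matrix rich in hyaluronan are known to drive this endothelial to mesenchymal transition, and factors such as Snai1, Twist1 and Msx1 mark it. Cdh5 encodes VE-cadherin, the junction cadherin of endothelium. Hapln1 encodes a link protein that ties hyaluronan to versican.

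The libraries also differed in the sex of the embryos and in depth. Ho1 was the only library with more than 4 UMIs of Xist, the transcript of the inactive X chromosome of females, at 7097 UMIs in its transition-gate cells against 0, 1 and 1 in Wt1, Wt2 and Ho2, and it held 0 UMIs of the Y-linked genes counted. The median UMIs per kept cell were 12066 and 15505 in Wt1 and Wt2 and 16898 and 16719 in Ho1 and Ho2. Both Ho libraries were thus deeper than both Wt libraries, and Wt1 was the shallowest, so an effect of depth and one of genotype cannot be told apart in measures that depend on depth, such as the gate. Cell barcodes shared between any pair of libraries numbered 14 to 34, and 0 were shared among transition-gate cells.

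The mesenchymal side of the gate was also read in cells of other types. Twist1, the gene that decided membership for most endothelial cells, had a UMI in 13.4%, 9.69%, 9.73% and 14.0% of cells with high Tnnt2 and Myl7 in Wt1, Wt2, Ho1 and Ho2, against 51.7%, 50.8%, 56.2% and 53.2% of endothelial-gate cells. Hapln1 alone was found in 90.4% to 97.9% of endothelial-gate cells. Twist1 and Hapln1 were found together in 0.726%, 0.791%, 1.05% and 0.760% of the cells with high Tnnt2 and Myl7, at median depths of 14380 to 18583 UMIs, against 49.0%, 48.1%, 55.4% and 51.6% of endothelial-gate cells at 13701 to 16610. In macrophage-gate cells, which were few and deep, the share was 1 of 25, 2 of 44, 6 of 70 and 0 of 13 cells, and the last allows up to 23.1% when 3 cells are taken as the limit of a count of 0 (exact 95% upper bound 24.7%). Epithelial-gate cells held the pair in 3 of 113, 1 of 66 and 3 of 113 cells in Wt1, Wt2 and Ho2, and Ho1 had no such cell.

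There were 711, 956, 1190 and 643 transition-gate cells in Wt1, Wt2, Ho1 and Ho2, and their summed UMIs ranged from 11583213 in Wt1 to 22410315 in Ho1. The gate took about as many endothelial cells as it left, since 741, 1030, 957 and 602 cells with Cdh5 and Pecam1 lay outside it. Most of those outside had Hapln1 and lacked Twist1. Twist1 stood at exactly 1 UMI in 36.7% to 39.2% of the members and at 6 or more in 15.2% to 18.7% in Wt1, Ho1 and Ho2 and 19.04% in Wt2, so Twist1 detection set the border.

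Cells on both sides of that border were similar in their share of endothelial transcripts. Members with 1 Twist1 UMI had a median of 62.6%, 64.5%, 63.7% and 65.04% endothelial UMIs among the UMIs of 2 lists, endothelial identity and cushion mesenchyme, in Wt1, Wt2, Ho1 and Ho2, a measure called the balance below, from which gate genes were left out. Cells just outside, with Hapln1 and no Twist1, had 65.4%, 66.0%, 65.2% and 66.0%. Members with 6 or more Twist1 UMIs lay far lower, at 35.3%, 37.3%, 34.9% and 38.6%. At the endothelial border, members with exactly 2 UMIs of Cdh5 and Pecam1 had 38.5%, 35.4%, 34.5% and 34.5%, and cells with 1 UMI, outside the gate, had 21.2%, 19.2%, 21.2% and 20.8%.

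Most of these cells had a majority of endothelial UMIs, so they are named by the gate and not as cells in transition. The median balance of all members was 56.8%, 60.2%, 58.4% and 59.1%, below the 65.4%, 66.0%, 65.2% and 66.1% of endothelial cells outside the gate and far above the 13.0%, 12.4%, 13.5% and 10.6% of cushion cells, which had Twist1 and Hapln1 and no UMI of Cdh5 or Pecam1. Members with more than 50% made up 63.3%, 70.8%, 65.8% and 66.9%. Members between 25% and 50% made up 28.4%, 22.0%, 24.7% and 26.1%, and those under 25% made up 8.30%, 7.22%, 9.5% and 7%. Wt and Ho overlapped in each of the 3 ranges.

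**Figure D1:**
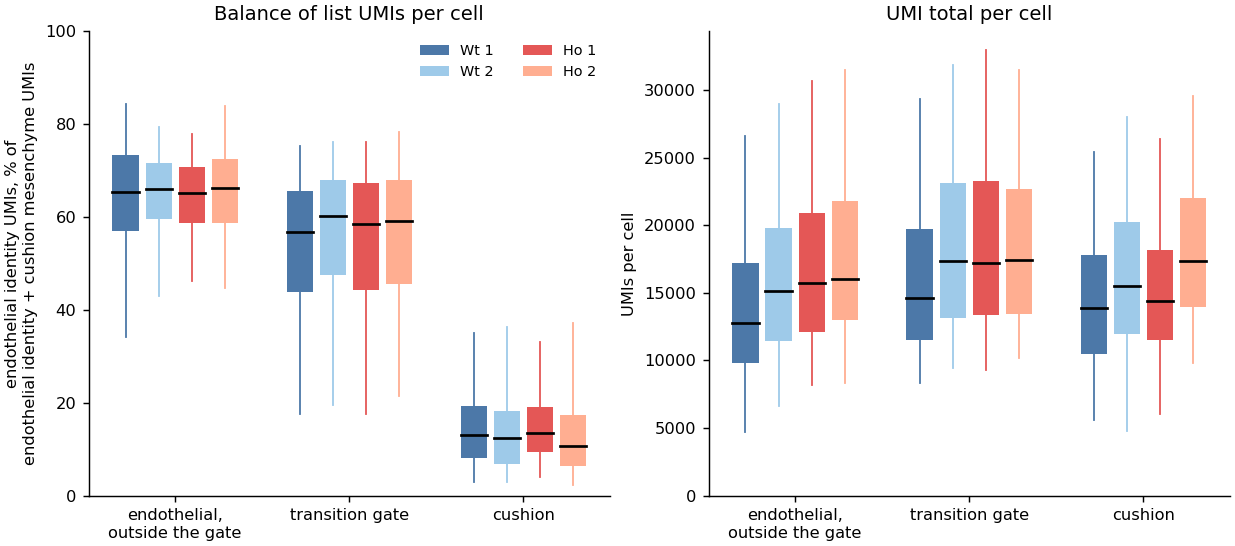
Balance of endothelial identity UMIs against cushion mesenchyme UMIs per cell (left, percent) and UMI total per cell (right) in endothelial cells outside the gate, transition-gate cells and cushion cells of each library. Boxes span the quartiles, black lines are medians and thin lines run from the 5th to the 95th percentile. Transition-gate cells reached from the endothelial to the cushion range, and their median UMI total was the highest of the 3 classes in each library.

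Depth and doublet calls were compared because a droplet with an endothelial and a cushion cell would pass the gate. The median UMI total of members was 14621, 17326, 17231 and 17464, against 12799, 15150, 15698 and 15997 in endothelial cells outside the gate and 13910, 15540, 14434 and 17329 in cushion cells. Scrublet, a doublet caller, marked 8.16%, 4.08%, 5.97% and 2.18% of members, against 2.97%, 1.36%, 2.40% and 1.66% of endothelial cells outside and 3.78%, 1.39%, 0.965% and 0.471% of cushion cells. Members were thus deeper and more often called doublets than either class. With the called doublets left out, 16 genes were called between Ho and Wt in place of 8, and all 8 were among them.

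Levels of genes were set beside endothelial cells outside the gate and cushion cells, here with up to 1 UMI of Cdh5 and Pecam1, as UMIs of the summed cells of a library scaled to 1000000 (CPM). Of 11071 genes with at least 20 UMIs in the members of every library, 22.6% lay between both classes in all 4 libraries, 2.9% above both and 2.28% below both. Cells were chosen by their own transcripts, so these positions describe the gate and carry no test. Endothelial identity genes lay between in 30 of 34 measured genes, cushion mesenchyme genes in 21 of 30 and transition and cushion factors in 18 of 30.

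In sums over all members, Emcn and Kdr were lower than outside the gate and not lost, while Tek was not lowered in every library. Emcn, which encodes the endothelial sialomucin endomucin, had 200.03, 276, 205 and 212 CPM in members of Wt1, Wt2, Ho1 and Ho2, against 295 to 355 outside the gate and 8.06 to 9.80 in cushion cells. Kdr, the VEGF receptor, had 98.2, 112, 104 and 121 CPM in members. Tek, the angiopoietin receptor, had 116 to 124 CPM, which overlapped its level outside the gate and stood above the 30.6 to 33.4 CPM of cushion cells.

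The cushion genes Vcan, Cthrc1 and Has2 were raised over endothelial cells. Col3a1, a collagen gene, was not raised in every library. It had 344, 351, 366 and 324 CPM in members of Wt1, Wt2, Ho1 and Ho2, against 309, 316, 368 and 290 outside the gate. Vcan, which encodes versican, had 179, 153, 190.1 and 152 CPM in members, 40.6 to 59.4 outside the gate and 368 to 553 in cushion cells. Cthrc1, a secreted collagen triple helix protein, had 84.1 to 107 CPM against 18.2 to 34.7 and 479 to 640. Has2, the hyaluronan synthase of the cardiac jelly, had 39.8 to 52.5 CPM against 22.5 to 30.8 and 68.4 to 103. Each of the 3 lay between in every library.

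Of the 30 transition and cushion factors measured, 18 lay between in every library, 3 stood above both classes and 9 had no fixed position. Snai1, a repressor of junction genes, had 12.3, 10.1, 11.3 and 12.4 CPM in members, between 5.83 to 8.60 outside and 24.7 to 29.6 in cushion cells. Sox9, a factor of cushion and cartilage precursors, had 39.6 to 44.9 CPM, between 8.85 to 12.7 and 115 to 163. Erbb3, a neuregulin co-receptor of cushion mesenchyme, had 7.14 to 10.0 CPM, between 1.21 to 1.98 and 29.2 to 47.7. Msx1 did not keep this order: its 91.3 CPM in members of Wt1 exceeded the 86.3 of cushion cells, and it lay between in the other 3 libraries.

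Of 15 endocardial genes measured, 8 lay between, 3 stood above both classes and 4 had no fixed position. Nfatc1, the calcineurin-dependent factor of valve endocardium, had 54.1, 52.0, 55.2 and 60.8 CPM in members, against 42.2, 48.4, 55.0 and 48.8 outside the gate and 13.8 to 19.7 in cushion cells, so Ho1 differed by little. Outside the endocardial list, Jam2, a junctional adhesion molecule, was the gene with the widest margin, with 24.3, 19.5, 20.6 and 18.6 CPM in members, 7.15 to 7.93 outside and 6.15 to 8.39 in cushion cells. Hey2, a Notch target factor, had 17.8 to 20.4 CPM against 11.8 to 14.7 and 10.0 to 11.3.

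Against the narrower class with neither Twist1 nor Hapln1, which held 100, 111, 28 and 48 cells, and with cushion cells of 0 UMIs of Cdh5 and Pecam1, 10.8% of the 11071 genes lay between, 3.94% above and 2.66% below. Both references differ from those above, and the part of each in the change was not tested. The narrow endothelial cells were shallow, with medians of 9144 to 11548 UMIs, and were chosen for zeros, so the wider class is the reference in the text.

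The members were then divided by balance, at 25% and 50%, limits chosen after the values were seen. The middle range, with 202, 210, 294 and 168 cells, had a median depth of 13540, 14804, 15281 and 16105 UMIs, below the 15570, 18228, 18428 and 18211 of members over 50%. Scrublet marked more of the middle range, at 13.9%, 9.05%, 11.2% and 6.55%, than of members over 50%, at 5.56%, 2.81%, 4.47% and 0.465%. The ranges differed in endothelial genes, though not all in 1 order. Emcn had 278, 354, 283 and 281 CPM over 50%, then 58.2, 71.3, 49.0 and 84.7 in the middle, and 11, 8, 5.38 and 1.08 under 25%. Emcn belongs to the list that set the balance. Npr3, the natriuretic peptide clearance receptor of endocardium, does not, and it had 148 to 158 CPM over 50%, 53.4 to 70.5 in the middle and 1.10 to 16.2 under 25%. Nfatc1 did not keep this order, with 57.1 and 61.5 CPM over 50% and 61.1 and 73.4 in the middle of Ho1 and Ho2.

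Erbb3 had the opposite order, with 1.10 to 2.22 CPM over 50%, 14.0, 17.6, 17.3 and 21.2 in the middle and 35.7 to 50.4 under 25%. Snai1 had 6.32 to 9.13 CPM over 50%, 16.1 to 20.5 in the middle and 18.7 to 35.7 under 25%. Neither gene was in the lists of the balance, and each of the 4 libraries gave the same order. The levels of all members given above are thus sums over cells that differed. Over 50%, mean levels were close to those of endothelial cells outside the gate for Erbb3 (1.67 against 1.63 CPM), Snai1 (7.43 against 6.80) and Has2 (25.6 against 26.0). They were higher for Msx1 (77.0 against 39.8) and Vcan (71.4 against 50.5).

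A set of genes was highest in the middle range. Of 8264 genes with at least 20 UMIs there in every library, and outside the lists of the balance, 205 (2.48%) had more CPM in the middle than in members over 50%, in members under 25%, in endothelial cells outside and in cushion cells, in all 4 libraries. The reverse, lowest in the middle, was seen for 94 genes (1.14%). With the called doublets removed the first count was 271 of 7779 genes (3.48%), and 176 genes were in both sets. The counts come from the cells that the balance divided and are given with no test.

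Hedgehog genes were among them. Dhh, which encodes the Desert hedgehog ligand, had 27.3, 25, 24.5 and 35.5 CPM in the middle range of Wt1, Wt2, Ho1 and Ho2. It had 12 to 20.2 CPM in members over 50%, 6.49 to 15.2 under 25% and 6.52 to 11.1 in cushion cells, and no library of another range reached the lowest middle value. Ptch1, the hedgehog receptor and a target of the pathway, had 30.6, 27.9, 24.3 and 28.4 CPM in the middle, against 15.1 to 21.6 over 50% and 15.2 to 24.9 under 25%. In Ptch1 the margin was small, and the middle value of Ho1 lay below values of other groups in Ho2. These were 2 of the 10 hedgehog genes measured, beside 2.48% of all genes measured.

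Flow-responsive endothelial genes were highest in the middle in 5 of 15 measured, beside 2.48% of all genes: Klf4, Klf6, Heg1, Mef2a and Edn1. Klf4, a factor induced by fluid shear, had 26.9, 37.9, 35.6 and 40.0 CPM there, against 15.4 to 29.2 over 50% and 7.69 to 17.1 under 25%. Edn1, the endothelin ligand, had 136, 125, 158 and 167 CPM, against 95.7 to 138 and 71.2 to 103. Heg1 exceeded members over 50% by little, with means of 46.5 and 45.3 CPM. The smallest margins over the next group were also small for Mef2a and Klf6, at 0.06 and 0.09 on the log2 scale.

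Genes that respond to cell dissociation were also highest in the middle in 4 of 18 measured, beside 2.48% of all genes. They were Jun, Atf3, Ier3 and Dusp1. Atf3, a stress factor, had 207, 210, 290 and 267 CPM in the middle, against 150 to 230 over 50% and 121 to 215 under 25%. The part of dissociation in the higher levels of Klf4 and Klf6, which such stress is also known to induce, was not tested.

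In the Notch list 1 of 14 genes was highest in the middle, Hey2, beside 2.48% of all genes. Hey2 had 31.6, 30.2, 26.7 and 29.7 CPM there, against 14.8 to 17.5 over 50% and 15.2 to 23.1 under 25%. Of the cell cycle lists, 1 of 42 S phase genes (Mcm7) and 0 of 51 G2/M genes were highest there. The widest margins were those of the noncoding RNA 5330416C01Rik, of Cdo1, a cysteine dioxygenase, and of Cxcl16, a membrane-bound chemokine. Cdo1 had 46.9, 37.6, 41.4 and 47.5 CPM in the middle and at most 23.5 in any other range or class. Cxcl16 had 52.2, 44.0, 45.0 and 54.0 CPM in the middle and at most 26.4 elsewhere.

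**Figure D2:**
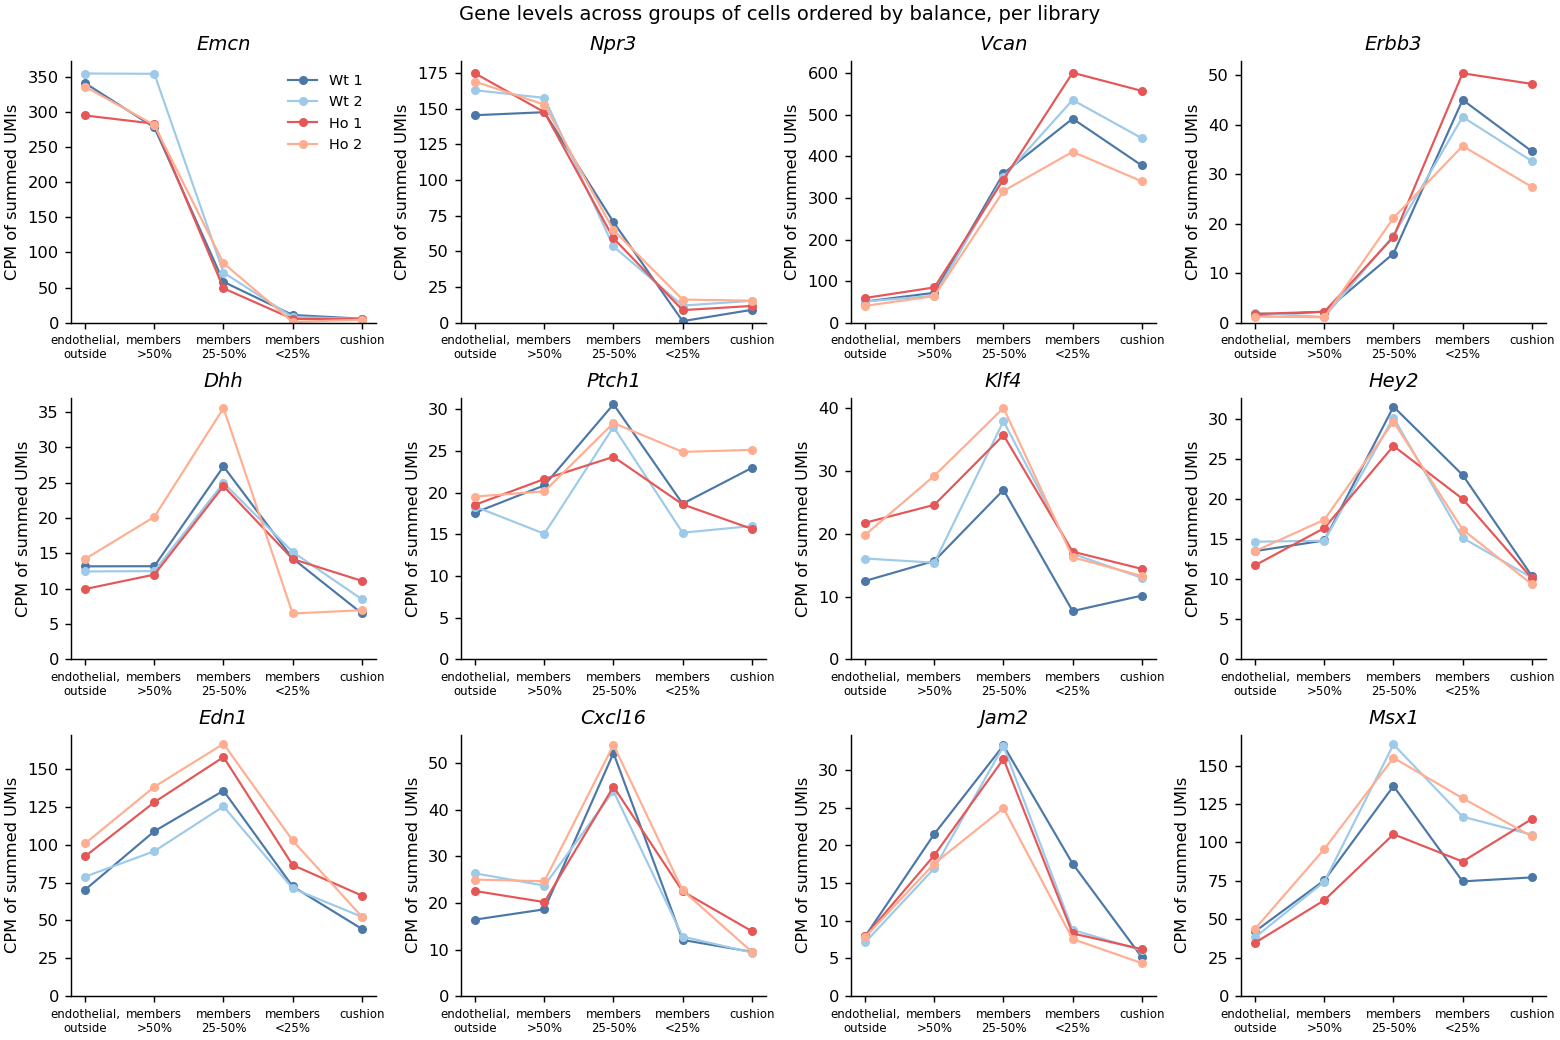
CPM of summed UMIs for 12 genes in endothelial cells outside the gate, in transition-gate cells with over 50%, 25 to 50% and under 25% endothelial UMIs, and in cushion cells, with 1 line per library. Emcn and Npr3 were high in the endothelial groups and Vcan and Erbb3 in the cushion groups, while Dhh, Ptch1, Klf4, Hey2, Edn1, Cxcl16 and Jam2 were highest in the middle group in all 4 libraries and Msx1 in 3 of 4.

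The first question between genotypes was whether mutant hearts held more or fewer such cells. Of kept cells, Wt1 had 8.58% members (95% exact binomial interval 7.99 to 9.21) and Wt2 14.0% (13.2 to 14.8). Ho1 had 17.2% (16.3 to 18.1) and Ho2 10.8% (10.00 to 11.6). The genotypes overlapped, at a Wt mean of 11.3% ± 3.81 and a Ho mean of 14.0% ± 4.52 (SD over 2 libraries, exact two-sided permutation p = 0.667). Endothelial-gate cells as a whole were 17.5%, 29.0%, 31.0% and 20.9% of kept cells, which ranks the libraries as the share of members does.

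Of endothelial-gate cells, Wt1 had 49.0% members (46.4 to 51.6) and Wt2 48.1% (45.9 to 50.4). Ho1 had 55.4% (53.3 to 57.5) and Ho2 51.6% (48.8 to 54.5). The genotypes did not overlap, at means of 48.6% ± 0.587 and 53.5% ± 2.67 (SD), and the exact permutation p of 0.3333 is the smallest that 2 against 2 libraries can give. After each cell was thinned to 2000 UMIs and the gate applied again, 26 of 322, 30 of 435, 33 of 412 and 20 of 228 cells passed, or 8.07%, 6.90%, 8.01% and 8.77%, and the order was no longer by genotype (exact permutation p = 0.667). Without cells above the 75th percentile of UMIs of the narrow endothelial class the shares were 40.4% ± 0.254 and 47.6% ± 0.445 (SD). Without those above that of endothelial cells outside the gate they were 44.3% ± 1.32 and 51.3% ± 1.41 (SD). Each library had its own limit, so depth was not equalised. In Wt1, Wt2, Ho1 and Ho2 the narrow class, with 28 and 48 cells in Ho, gave 12442, 14286, 13628.5 and 15716 UMIs. The cells outside the gate gave 17232, 19821.8, 20943 and 21836, higher in both Ho libraries. These settings widened the difference from 4.98 to 7.17 and 7.04 percentage points. With at least 2 UMIs each of Twist1 and Hapln1 the shares were 29.2% ± 1.22 and 32.0% ± 2.04 (SD), which narrowed it to 2.88 points, and with at least 3 UMIs of Cdh5 and Pecam1, both present, it was 4.65 points. Intervals cover counting error only.

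**Figure D3:**
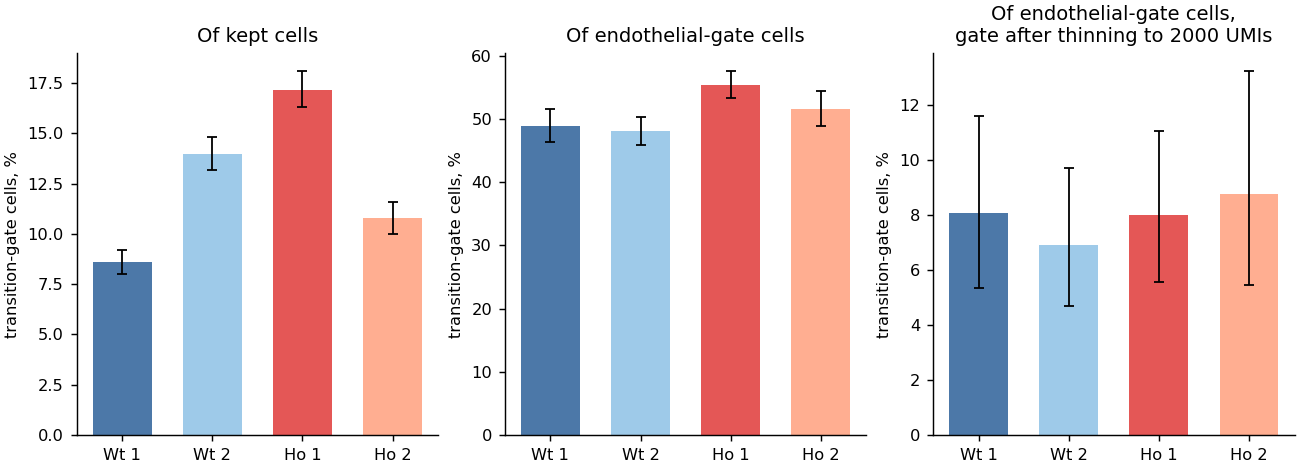
Transition-gate cells as a percent of kept cells (left), of endothelial-gate cells (middle) and of endothelial-gate cells when the gate was applied after thinning to 2000 UMIs per cell (right), with exact 95% binomial intervals. Ho libraries stood at 55.4% and 51.6% in the middle panel and Wt libraries at 49.0% and 48.1%, and the intervals of all 4 libraries overlapped after thinning.

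The second question was which genes differed between Ho and Wt within these cells. UMIs of the members were summed per library and 12978 genes were tested with edgeR's quasi-likelihood test. It called 8 genes (0.0616%) at an adjusted p under 0.05, of which 7 were higher in Ho (0.0539%) and 1 was lower (0.00771%). At an unadjusted p under 0.05 stood 753 genes. Simulated counts with the same means and library sizes gave 166 of 200 genes with a log2 change of 1 and 58 of 200 with 0.5. Unchanged genes called beside them numbered 8 and 1. Each simulated gene took its spread from the fitted trend, so genes with a wider spread of their own are not covered.

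Rhox5, an X-linked homeobox gene of reproductive tissue and early embryo (chrX:37804842-37808876, GRCm38), was the gene that fell. It had 44.6 and 46.4 normalised CPM in Wt1 and Wt2 and 23.5 and 22.8 in Ho1 and Ho2. The female library Ho1 and the male library Ho2 had nearly the same level. The log2 fold change was -0.97 ± 0.09 SE (edgeR adjusted p = 0.0218). In cushion cells it was -0.21 ± 0.24 SE, and in endothelial cells outside the gate -0.06 ± 0.28 SE, both past no threshold of the adjusted p, and the difference between classes was not called either.

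Wdr89 and Wdcp, which encode WD-repeat proteins, rose. Wdr89 (chr12:75630596-75669537) had 48.6 and 46.7 normalised CPM in Wt and 78.6 and 81.4 in Ho, a log2 fold change of 0.75 ± 0.08 SE (edgeR adjusted p = 0.0262). Wdcp (chr12:4843303-4860043) had 79.8 and 66.7 in Wt and 126 and 137 in Ho, or 0.85 ± 0.10 SE (edgeR adjusted p = 0.0283). Outside the gate Wdr89 had a log2 fold change of 0.90 and in cushion cells 0.86, and Wdcp had 0.66 and 0.32, with no call in either class.

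Rps27rt, a retrogene of the ribosomal protein gene Rps27 (chr9:114982366-114982739), had 35.3 and 30.7 normalised CPM in Wt and 57.8 and 71.5 in Ho. Its log2 fold change was 0.97 ± 0.12 SE (edgeR adjusted p = 0.0324). Reads of such a copy can be shared with Rps27, so the gene that gave these UMIs is uncertain. It lies within Osbpl10 on the other strand. In endothelial cells outside the gate the log2 fold change of Rps27rt was 1.03 ± 0.15 SE and in cushion cells 0.96 ± 0.15 SE. The unadjusted edgeR p was 1.9e-04 and 2.3e-04, with no call in either. Gm2000, a predicted gene of 445 bases on chromosome 1, had 31.4, 34.0, 50.03 and 52.8 normalised CPM and missed the threshold (0.65 ± 0.09 SE, edgeR adjusted p = 0.0625).

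A pair of noncoding RNAs rose. Bc1, a short neuronal RNA made by RNA polymerase III (chr7:144914470-144914637), had 23.4 and 23.9 normalised CPM in Wt and 41.3 and 39.0 in Ho, a log2 fold change of 0.76 ± 0.10 SE (edgeR adjusted p = 0.0324). B230312C02Rik, a long noncoding RNA (chr2:180370491-180385885), had 20.5 and 18.4 in Wt and 33.7 and 35.7 in Ho, or 0.84 ± 0.11 SE (edgeR adjusted p = 0.0341). In both the Ho libraries lay close together. Bc1 had a log2 fold change of 1.09 ± 0.19 SE in endothelial cells outside the gate, above that in members, and 0.64 ± 0.15 SE in cushion cells. B230312C02Rik had 0.81 ± 0.38 SE and 0.12 ± 0.36 SE, and neither gene was called in either class.

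The widest changes among the called genes were in Ptcra and Olfr889, both of low level. Ptcra, the pre-T cell receptor alpha chain (chr17:46755663-46763712), had 21 and 26 UMIs in Wt and 154 and 80 in Ho, or 1.82, 1.42, 7.07 and 6.62 normalised CPM, a log2 fold change of 2.11 ± 0.22 SE (edgeR adjusted p = 0.0241). Olfr889, an olfactory receptor gene (chr9:38115198-38121245), had 33, 29, 302 and 107 UMIs, or 2.45 ± 0.29 SE (edgeR adjusted p = 0.0283). Outside the gate Ptcra had a log2 fold change of 1.34 and Olfr889 1.77, and in cushion cells they had 0.32 and 1.27, with no call in either class and no called difference between classes for any of the 8 genes. Tc2n, a C2-domain gene on chromosome 12, had 0 UMIs in both Wt libraries and 30 and 17 in Ho, at least 13.4-fold higher when 3 UMIs over the Wt group are taken as the limit, and its adjusted p of 0.0612 missed the threshold.

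Of the 8 called genes, 8 kept their direction without any 1 library, and 8 stayed called without Wt1, without Ho1 and without Ho2, but without Wt2 only Rhox5 stayed called. The number called was 6 without Wt2, 22 without the female library Ho1, 70 without the shallow library Wt1 and 138 without Ho2. All 8 stayed called with DESeq2, with RLE scaling, with no filter on low counts, with at least 10 UMIs in every library, without Scrublet doublets and with at most 10% mitochondrial UMIs. Other choices of cells, and a replicate block, ended 4 to 8 of the calls. A gate of at least 3 UMIs of Cdh5 and Pecam1, with both present, kept Rhox5 alone, and one of at least 2 UMIs each of Twist1 and Hapln1 kept Bc1, Rps27rt, Wdr89 and Ptcra. The replicate number as a block kept Olfr889 alone. Without cells above the 75th percentile of UMIs of the narrow endothelial class edgeR called 0 genes, with 567 at an unadjusted p under 0.05, and the limit set from endothelial cells outside the gate, like the gate at equal depth (where 4 of the 8 were tested), kept 0 of the 8. Restricted to members with over 50% endothelial UMIs it called 4 genes, Bc1, Olfr889, Wdr89 and Rhox5, and in members with at most 50% edgeR called 0, with 708 at an unadjusted p under 0.05.

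**Figure D4:**
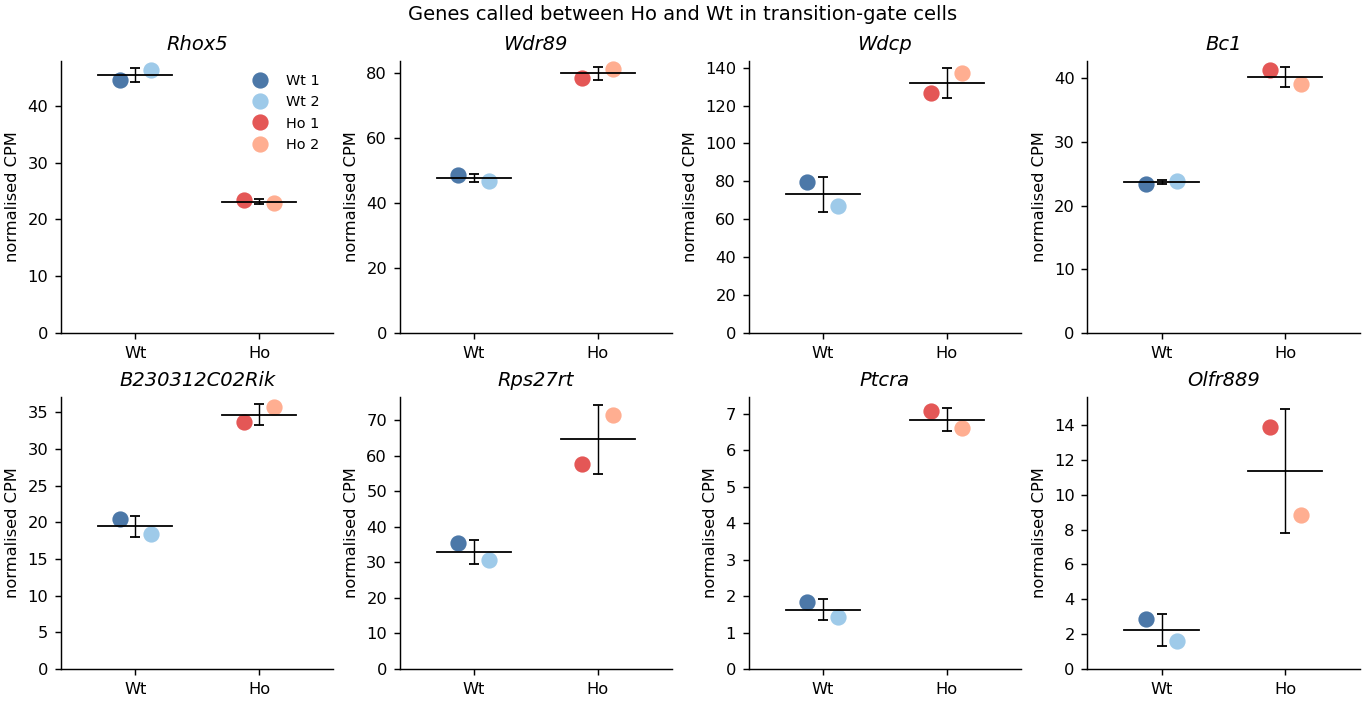
Normalised CPM of the 8 genes called between Ho and Wt in transition-gate cells, with 1 point per library, the group mean as a line and the SD as a bar (n = 2 libraries each). Rhox5 was lower in both Ho libraries, and the other 7 genes were higher in both Ho libraries than in either Wt library.

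With the filter on low counts, edgeR called no gene of the 22 lists. Without that filter it called 254 genes, with Klf4, Col9a1, Bmp2, Dlk1, Cd44, Vegfa, Scx and Atf3 among them. Of 32 transition and cushion factors tested, 25 were higher and 7 lower in Ho, with a median log2 fold change of 0.08 against 0.0033 over all genes, and 6 and 3 had an unadjusted p under 0.05, where 3.54% and 2.26% of all genes did. Their smallest p was that of Scx, a tendon and valve factor, with 10.8, 9.74, 7.07 and 6.37 normalised CPM and a log2 fold change of -0.59 ± 0.15 SE (edgeR adjusted p = 0.511). The 2 Ho values exceeded the 2 Wt values in 9 of the 32 genes and fell short of them in 3, beside 17.5% and 18% of all genes.

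The lists of endothelial identity and of cushion mesenchyme genes had medians close to that of all genes. The median was 0.01 for 35 endothelial identity genes and 0.03 for 32 cushion mesenchyme genes. Col9a1, a collagen chain of cushion and cartilage, led the latter with 17.7, 16.4, 10.4 and 10.9 normalised CPM and -0.68 ± 0.12 SE (edgeR adjusted p = 0.201). S1pr1, the sphingosine phosphate receptor of endothelium, led the former with 0.31 ± 0.10 SE (edgeR adjusted p = 0.687). Of the cushion mesenchyme genes, 1 was higher and 4 were lower in Ho at an unadjusted p under 0.05, where 3.54% and 2.26% of all genes were. The 2 Ho values exceeded the 2 Wt values in 2 of these genes and fell short of them in 8, beside 17.5% and 18% of all genes. The endocardial list of 17 genes had a median of 0.08. Its leading gene was Gata4, with 87.5, 85.2, 95 and 104 normalised CPM and 0.20 ± 0.08 SE (edgeR adjusted p = 0.852).

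In the signalling lists the leading genes below missed the threshold with that filter and passed it without. Bmp2, the ligand that starts cushion formation, led the 37 TGF-beta and BMP genes with 34 and 59 UMIs in Wt and 118 and 76 in Ho, a log2 fold change of 0.90 ± 0.20 SE (edgeR adjusted p = 0.379). Dlk1, a Notch ligand-like protein, led 22 Notch genes at -0.49 ± 0.11 SE (edgeR adjusted p = 0.353). Cd44, the hyaluronan receptor, led 20 hyaluronan and ErbB genes at 0.71 ± 0.18 SE (edgeR adjusted p = 0.574), and Vegfa led 20 VEGF and calcineurin genes at 0.56 ± 0.15 SE (edgeR adjusted p = 0.597). The medians of these 4 lists were 0.06, 0.03, 0.08 and 0.10.

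Klf4 led 16 flow-responsive genes, of which 12 were higher in Ho and 3 of these had an unadjusted p under 0.05, where 3.54% of all genes were higher at that p. It had 18.1 and 19.3 normalised CPM in Wt and 27.1 and 30.7 in Ho, a log2 fold change of 0.62 ± 0.11 SE (edgeR adjusted p = 0.201). Atf3, which led 19 dissociation and stress genes, had 167, 171, 249 and 229 and 0.50 ± 0.08 SE (edgeR adjusted p = 0.130). The groups did not overlap in either gene, and neither passed the test over all genes. Timp3, an inhibitor of matrix proteases, led 30 junction and adhesion genes at 0.24 ± 0.09 SE (edgeR adjusted p = 0.760).

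In the cell cycle lists more genes were higher than lower in Ho, and 0 were called. Of 52 G2/M genes, 37 were higher in Ho, and both Ho libraries exceeded both Wt libraries in 16 and lay below in 0, beside 17.5% and 18% of all genes, with a median log2 fold change of 0.08. Kif23, a motor of cytokinesis, led them at 0.33 ± 0.10 SE (edgeR adjusted p = 0.673). Of 42 S phase genes 26 were higher, and the leading gene was Ung, a uracil glycosylase, at 0.21 ± 0.11 SE (edgeR adjusted p = 0.871). Summed G2/M UMIs per 10000 were 67.6 and 69.6 in Wt1 and Wt2 and 70.6 and 69.4 in Ho1 and Ho2, which overlapped.

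The transcript level of Cyp51 does not check the genotype labels, since the allele is a missense change. It had 42.6 and 41.6 normalised CPM in Wt and 42.0 and 37.9 in Ho, a log2 fold change of -0.07 ± 0.09 SE (edgeR adjusted p = 0.935). Of 28 cholesterol synthesis genes 17 were higher and 11 lower, with a median of 0.02. Srebf2, the sterol-regulated factor of the pathway, led them at 0.40 ± 0.12 SE (edgeR adjusted p = 0.663).

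Hedgehog genes were measured because the study followed this pathway in the mutant. Gli1, its reporter gene, had 6, 8, 0 and 4 UMIs in the members of Wt1, Wt2, Ho1 and Ho2, too few to be tested. Ptch1 had 23.4, 17.1, 22.6 and 22.4 normalised CPM (log2 fold change 0.17 ± 0.15 SE, edgeR adjusted p = 0.911). Smo, the transducer, had 31.9, 27.0, 23.2 and 30.7 (-0.13 ± 0.15 SE, edgeR adjusted p = 0.925). In both the genotypes overlapped. Of 19 hedgehog genes tested 10 were higher and 9 lower, and the smallest p was that of Foxf1, with 47, 29, 6 and 19 UMIs (log2 fold change -1.77 ± 0.67 SE, edgeR adjusted p = 0.768), which was -0.97 without Wt1, -0.75 without Ho1 and -3.24 without Ho2. Foxf1 also marks splanchnic mesoderm. All 5 tested markers of the second heart field and splanchnic list were lower in Ho, beside 6359 of 12973 genes. Foxf1 alone had an unadjusted p under 0.05, where 2.26% of all genes were lower. In 1 of the 5 both Ho libraries lay below both Wt libraries, beside 18% of all genes.

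Markers of some other cell types were high in single libraries. The 17 cardiomyocyte markers summed to 827, 1083, 2834 and 913 CPM in members of Wt1, Wt2, Ho1 and Ho2, with Myl7 at 922 CPM the most abundant in Ho1. All 17 were higher in Ho on average, with a median log2 fold change of 1.42. At an unadjusted p under 0.05, 14 were higher, where 3.54% of all genes were. Both Ho libraries exceeded both Wt libraries in 7 of the 17, beside 17.5% of all genes, while Ho2 lay within the Wt range in the sum. Actn2, a sarcomere protein, led them with 22, 38, 237 and 43 UMIs (log2 fold change 1.92 ± 0.45 SE, edgeR adjusted p = 0.460), and without Ho1 the change was 0.82. Myl7 UMIs were found in 88.2% of the members of Ho1 and in 67.2%, 82.9% and 79.0% of those of Wt1, Wt2 and Ho2.

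Erythroid markers summed to 84.5, 660, 80.5 and 119 CPM. In Wt2, 1 cell held 4165 of the 4233 UMIs of the embryonic globin Hba-x, the same cell held 960 of the 981 of Hbb-bh1, and without it the remaining UMIs of either gene were few. Of 8 erythroid markers tested 7 were lower in Ho, all 7 at an unadjusted p under 0.05, where 2.26% of all genes were. In 1 of the 8 both Ho libraries lay below both Wt libraries, beside 18% of all genes. Hbb-bh1 had the smallest p (log2 fold change -3.42 ± 1.05 SE, edgeR adjusted p = 0.673), and without Wt2 it was 0.87. Macrophage markers stayed at 2.41 to 8.61 CPM in sum, with C1qa at 0 in Wt1, Ho1 and Ho2, and their leading gene Tyrobp had 13, 7, 33 and 2 UMIs.

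Epicardial markers summed to 38.5, 45.5, 52.2 and 42.5 CPM, mostly Tcf21 at 27.5 to 31.4, and Tbx18 led them with 3, 25, 56 and 30 UMIs (log2 fold change 1.48 ± 0.48 SE, edgeR adjusted p = 0.673), which was 0.88 without Wt1 and 3.24 without Wt2. Epithelial markers summed to 39.0, 38.4, 21.7 and 35.2 CPM, and Epcam led them with 58, 43, 15 and 16 UMIs (-1.91 ± 0.45 SE, edgeR adjusted p = 0.461). Of the neural crest and arch markers, Crabp1 had 505 UMIs in Wt1 against 168, 140 and 104 (-1.80 ± 0.56 SE, edgeR adjusted p = 0.673), which was -0.32 without Wt1. The part of these other cell types in the called genes was not tested.

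**Figure D5:**
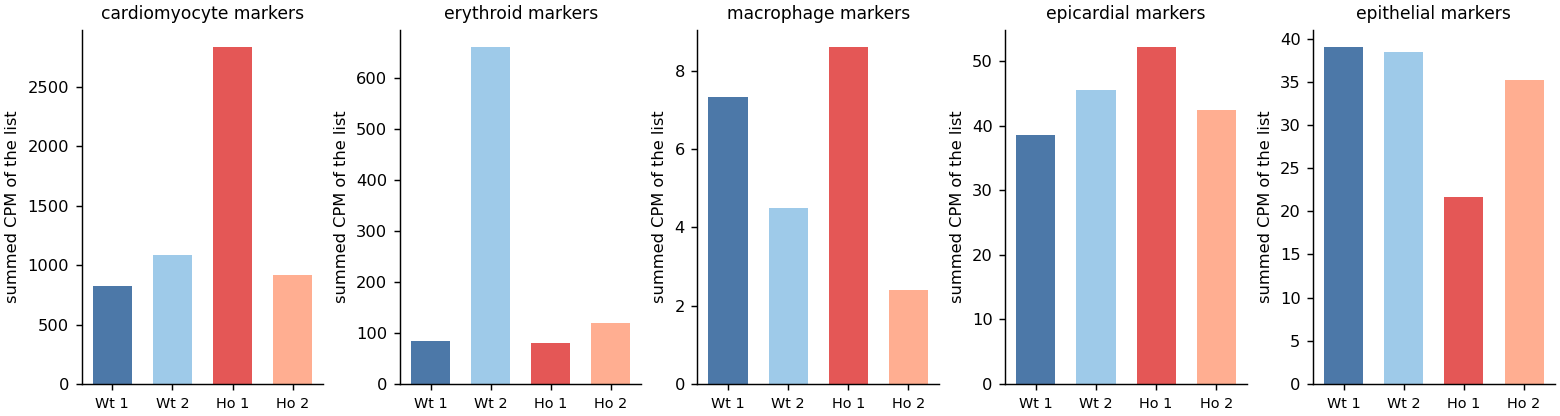
Summed CPM of marker lists of other cell types in transition-gate cells of each library, on an axis of its own for each list. Cardiomyocyte markers were highest in Ho 1 at 2834 CPM, erythroid markers in Wt 2 at 660 CPM, and macrophage markers stayed below 8.62 CPM.

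The last question was whether the effect of the allele differed in these cells from that in their neighbours. Within each neighbour class edgeR called 0 genes, with 747 of 12819 at an unadjusted p under 0.05 in endothelial cells outside the gate, 491 of 12403 in cushion cells and 280 of 7145 in the narrow endothelial class. Tested as a difference of effects over 13494 genes, with the library as a block, 2 genes (0.0148%) differed from the narrow endothelial class and 2 (0.0148%) from cushion cells.

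Acta2, the smooth muscle actin, had 168, 171, 272 and 221 CPM in members, and in the narrow endothelial class it had 449, 827, 207 and 125 CPM. The difference of the log2 fold changes was 2.55 ± 0.34 SE (edgeR adjusted p = 0.0218). The call was lost without the library block (2.56, edgeR adjusted p = 0.183), with at least 10 UMIs in every sum (2.55, edgeR adjusted p = 0.37) and without Wt2 (2.07, edgeR adjusted p = 0.154). The narrow class holds 28 and 48 cells in Ho, and 5 cells held 83.3%, 43.9%, 80.9% and 66.7% of its 444, 1059, 68 and 75 Acta2 UMIs in Wt1, Wt2, Ho1 and Ho2. In Ho1 its macrophage markers summed to 1436 CPM against 53.3 to 68.8 in the other 3 libraries, its cardiomyocyte markers to 4341 against 470 to 1803, and its endothelial identity genes to 2960 against 6813 to 8934. The part of these cells in the Acta2 difference was not tested. Against the wider endothelial class, with 192, 253, 193 and 169 CPM, the difference was 0.83 ± 0.23 SE and an unadjusted p of 0.00362, which did not pass the adjustment over all genes.

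Tagln, which encodes the actin-binding protein transgelin of smooth muscle, differed from the wider endothelial class, a comparison added after the data were seen. It had 272, 315, 357 and 355 CPM in members and 401, 392, 158 and 275 CPM outside the gate, with Ho above Wt among members and below Wt outside, a difference of the log2 fold changes of 1.19 ± 0.17 SE (edgeR adjusted p = 0.0276). Tagln UMIs were found in 39.0%, 46.3%, 48.4% and 47.1% of members and in 28.1%, 40.3%, 30.6% and 40.0% of cells outside. Stmn4, a stathmin-family protein of neurons, had 14.2, 13.9, 16.8 and 10.2 CPM in members and 13.7, 10.0, 1.65 and 3.27 outside, a difference of 2.30 ± 0.34 SE (edgeR adjusted p = 0.0290). In these genes the groups moved apart outside the gate more than within it. Both calls were lost without the library block, at differences of 1.14 for Tagln and 2.29 for Stmn4. They were also lost with at least 10 UMIs in every sum (1.19 and 2.30, edgeR adjusted p = 0.0602 for each). The same held without Wt1 (1.08 and 2.11) and without Wt2 (1.30 and 2.51). Without Ho1 the difference was 0.78 for Tagln, still called, and 1.33 for Stmn4, not called.

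Of the other called genes, Pf4, a platelet and macrophage chemokine, differed from the narrow endothelial class by -11.10 ± 1.36 SE (edgeR adjusted p = 0.0194), where 1 cell of Ho1 held 999 of 1153 Pf4 UMIs, and among members 1 cell of Wt2 held 908 of 1040. The Pf4 call was lost without the library block (-11.11, edgeR adjusted p = 0.860). It was also lost without Wt1 (-10.78), without Wt2 (-8.65) and without Ho1 (-2.77), and kept without Ho2 (-11.97). Hba-x and Hbb-bh1 differed from cushion cells by -6.51 and -5.29 (edgeR adjusted p = 0.0209 and 0.0417), with the Wt2 cell named above in the members. Their differences were -0.87 and -1.62 without Wt2 and -6.72 and -4.75 without Ho1, not called in either fit. Against the wider endothelial class, 7 of 13758 genes (0.0509%) were called, Tagln, Stmn4 and 5 globins, and there 1 cell of Ho1 outside the gate held 5410 of 7807 Hba-x UMIs. Hbb-bt, with 42, 53, 52 and 10 UMIs in members and 29, 32, 257 and 18 outside, had at most 45.3% of its member UMIs in 1 cell, while 2 cells held 116 and 109 of the 257 in Ho1 outside the gate. The Hbb-bt call was lost without Wt1 (-3.07), without Wt2 (-2.83) and without Ho1 (-1.53), and kept without Ho2 (-3.28).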

How the data were processed

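Single-cell libraries of dissected E10.5 hearts were made by the authors with 10x 3' chemistry v3.1. Cell Ranger 6.1.1 and mm10 are named in the submitters' processing notes, and the deposited matrices hold raw UMI counts per gene and barcode, unfiltered by the gates used here. The members, gene lists and alternatives were chosen with earlier results of these data known. Each library held 107377100 to 127018819 UMIs, and 5969 to 8283 cells were kept.

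UMIs were summed per library and class. Genes were filtered with filterByExpr, scaled by TMM and tested between Ho and Wt with edgeR 4.0.16 (glmQLFit and glmQLFTest), with Benjamini-Hochberg adjustment over all genes tested and a threshold of 0.05. Differences of effects between classes used 12 sums with the library as a block. Scrublet in scanpy 1.11.5 called doublets within each library. Shares were compared by exact permutation tests over libraries. DESeq2 1.42.0 was an alternative. Named genes between genotypes were those called, the 10 with the smallest p (since under 10 were called), the gate genes, the gene with the smallest p of each list, and Cyp51, Gli1, Ptch1, Smo and Gata4. Levels were given for a panel of transition, endothelial and cushion genes and those with the widest margins. Genes named for the middle range, and those called between classes, were chosen after their values were seen. Of 32285 gene identifiers, 32235 matched GENCODE on GRCm38, which gave the coordinates. The test was checked on simulated counts. Libraries were not thinned or pooled for the main test, and p-values rest on 2 libraries per genotype.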

Additional observations from a re-analysis of the deposited data

Results flagged for a closer look

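A difference of the Ho against Wt effect between classes, tested as an interaction with edgeR, picked out these results. Against the narrow endothelial class, Acta2 differed by 2.55 and Pf4 by -11.10 on the log2 scale. Against cushion cells, Hba-x differed by -6.51 and Hbb-bh1 by -5.29. Against endothelial cells outside the gate, Tagln differed by 1.19 and Stmn4 by 2.30, and the globins Hba-x, Hba-a1, Hba-a2, Hbb-bh1 and Hbb-bt differed by -11.58, -10.96, -10.18, -9.32 and -2.98. Without Wt2 the differences of Hba-x, Hba-a1, Hba-a2 and Hbb-bh1 there were -5.40, -3.97, -3.86 and -4.73. Without Ho1 they were -6.77, -6.03, -5.35 and -4.16, and in both fits these calls were lost.

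Hba-x, Hba-a1, Hba-a2, Hbb-bh1 and Pf4 were concentrated in few cells. Among members of Wt2, 1 cell held 98.4% of Hba-x, 98.6% of Hba-a1, 99.1% of Hba-a2 and 97.9% of Hbb-bh1 UMIs, and outside the gate in Ho1 the cell with the most held 69.3%, 60.8%, 59.5% and 73.4%. Of Pf4, 1 cell held 87.3% among members of Wt2 and 86.6% in the narrow endothelial class of Ho1. Of Hbb-bt, 1 cell held 45.3% among members of Wt2, and outside the gate in Ho1 2 cells held 87.5% and 5 cells 91.8%. Of Acta2, 5 cells of the narrow endothelial class held 83.3%, 43.9%, 80.9% and 66.7% in Wt1, Wt2, Ho1 and Ho2, and 5 cells held 10.4% to 29.9% among members. Tagln was spread more widely, with the cell of most UMIs holding 3.64% to 7.44% of the sum among members and 4.99% to 8.30% outside the gate. Stmn4 rested on 27 and 35 UMIs in the Ho libraries outside the gate, in 13 and 8 cells, and 5 cells held 70.4% and 91.4% of them.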

How the results depend on the processing

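The 8 genes called between Ho and Wt kept their direction under each alternative in which they were tested, and the number called moved widely. DESeq2 called 19 genes (16 higher and 3 lower in Ho), and no filter on low counts called 254 (193 and 61), which then included Klf4, Col9a1, Bmp2, Dlk1, Atf3 and other genes named as not called. Without Scrublet doublets 16 were called (15 higher). The stricter endothelial gate called 1 (0 higher), the stricter mesenchymal gate 5 (0 lower), members over 50% endothelial UMIs 4 (3 higher) and those at most 50% 0. Without cells above the UMI limit of the narrow endothelial class 0 were called, above that of endothelial cells outside the gate 1 (1 higher, 0 lower), and with the gate at equal depth 0, with 567, 708 and 265 genes at an unadjusted p under 0.05 in the 3 settings with 0 calls, in the order narrow limit, at most 50% and equal depth. Leaving out 1 library gave 6 to 138 calls, 2 to 120 higher and 4 to 19 lower. Without Ho2 there were 138, without Wt1 70, without Ho1 22 and without Wt2 6, and the lone library was assumed to vary like the others. The cause was not tested.

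With the replicate block 1 gene was called (1 higher, 0 lower), Olfr889. The numbers were not shown to pair libraries, since deviations of same-numbered libraries correlated at -0.0367.

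For the differences between classes, no library block gave 0 calls against either class, and at least 10 UMIs in every sum gave 0 for both. Endothelial cells outside the gate gave 7, and the cushion comparison in that fit gave 0. In that comparison, under alternatives chosen after seeing the data, no library block gave 0 calls (215 at an unadjusted p under 0.05), at least 10 UMIs in every sum 1, and leaving out 1 library 0 (without Wt2) to 32 (without Ho2). Leaving out 1 library gave 0 to 167 calls against the narrow endothelial class and 0 to 21 against cushion cells. The share of members among kept cells differed by -0.508 to 5.88 percentage points between Ho and Wt when 1 library was left out, negative without Wt1 (-0.00830) and without Ho1, and that among endothelial-gate cells by 3.09 to 6.87. The latter was 2.88 points under the stricter mesenchymal gate, 4.65 under the stricter endothelial gate and 0.905 with the gate at equal depth, against 4.98. These points rest on different shares. The Wt and Ho means were 29.2% and 32.0%, 47.3% and 52.0%, and 7.49% and 8.39%, in that order of settings. In the main setting they were 48.6% and 53.5%. Genes between the classes numbered 2504 of 11071 with the wider endothelial and cushion classes together and 1193 (10.8%) with the narrow ones. Without cells above the narrow UMI limit fewer genes were measured, 7938, of which 822 (10.4%) lay between, 284 (3.58%) above both and 148 (1.86%) below both, against 3.94% and 2.66%.

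Among genes not called, the log2 fold change changed sign for S1pr1 at equal depth (-0.062), for Gata4 (-0.071), Timp3 (-0.050), Cyp51 (0.18) and Hbb-bh1 (0.98) without cells above the narrow UMI limit, for Cyp51 at equal depth (0.12), under the wider limit (0.11) and at most 50% (0.011), and for Ptch1 at equal depth (-0.70), at most 50% (-0.036) and in leaving out 1 library (-0.054 to 0.40, negative without Wt2). Hbb-bh1 was 1.13 under the stricter mesenchymal gate, 0.77 under the wider limit and 0.96 at most 50%, and ranged from -4.32 to 0.87 without 1 library. Without 1 library Tyrobp ranged from -2.00 to 1.29 and Smo from -0.33 to 0.066.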

Other observations

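Genes lower in transition-gate cells than in endothelial cells outside the gate and in cushion cells, in all 4 libraries, included Vegfc, a lymphatic and endothelial growth factor, with 20.1, 21.6, 16.9 and 21.7 CPM against 21.1 to 33.6 outside and 22.5 to 27.7 in cushion cells. Hpgd, a prostaglandin-degrading enzyme, had 2.90 to 5.23 CPM in members, against 4.33 to 12.5 outside and 20.3 to 49.5 in cushion cells. Cyp26b1, which degrades retinoic acid, stood above both classes, with 23.6, 17.8, 20.8 and 23.3 CPM in members, 7.21 to 14.9 outside and 1.41 to 2.69 in cushion cells. These are levels of cells chosen by their own transcripts and carry no test.

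Ptprb, the endothelial phosphatase that acts on VE-cadherin and Tek, had 95.8, 80.1, 87.6 and 102 CPM in members with 25 to 50% endothelial UMIs, against 45.7 to 57.3 over 50% and 37.3 to 48.7 under 25%. Ano1, a chloride channel, had 30.6, 28.2, 29.1 and 43.4 CPM there, against 7.61 to 11.9 over 50% and 8.80 to 20.6 under 25%. Notch1 was not among the genes highest in that range, with 63.1 to 74.9 CPM against 80.9 to 92.7 over 50%.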
